A study of Mus musculus with 2 samples.

Results

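Mir199a-1, Mir199a-2, Mir199b and Mir214 are microRNA genes that lie on the antisense strand of dynamin genes. They were taken by symbol from the GENCODE M21 annotation, and all 4 were found among the 2202 microRNA genes in the count tables. The tables come from small RNA libraries made from the gastrocnemius (the main muscle of the calf) of B6CASTF1/J mice, females of 36 days. B6CASTF1/J is the first hybrid generation between C57BL/6 and CAST/EiJ mice. The design holds 1 group of 2 libraries, biological replicates 2 and 1, with 2078101 and 1593787 reads assigned to microRNA genes. The labels describe separate females but give both the same donor identifier, so the spread between the libraries may be technical.

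Mir199a-2 and Mir214 are made from 1 long noncoding RNA, Dnm3os, which runs antisense through Dnm3. In mouse embryos Dnm3os is transcribed in mesenchyme under the transcription factor Twist1, and its loss disturbs skeletal growth. In mouse skeletal muscle cells miR-214 represses Ezh2, a Polycomb methyltransferase that holds muscle genes silent, and in zebrafish it tunes Hedgehog signalling in slow muscle precursors. The miR-199 microRNAs are known from fibroblasts, smooth muscle and heart.

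The genes occupy 3 loci of mm10. Mir199a-2 (ENSMUSG00000070126.1) lies at chr1:162217814-162217923 and Mir214 (ENSMUSG00000065516.1) at chr1:162223368-162223477, both on the plus strand and 5444 bases apart. Both are exonic in Dnm3os, where 2 of its 6 annotated transcripts span each hairpin in an exon, and both are intronic to Dnm3 on the minus strand. Mir199b (ENSMUSG00000092807.1) lies at chr2:32318460-32318569 on the plus strand, in an intron of Dnm1, which is on the minus strand. Mir199a-1 (ENSMUSG00000065547.1) lies at chr9:21496495-21496564 on the minus strand, in an intron of Dnm2, which is on the plus strand. No exon of any of the 12 Dnm3, 17 Dnm1 or 14 Dnm2 transcripts touches a hairpin. No other annotated microRNA gene overlaps a member on either strand.

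The mature forms are shown because their identity between loci decides which reads the tables could count. They are RefSeq sequences (GRCm38.p6, which is mm10), written 5′ to 3′ with the seed, bases 2 to 8, in capitals.

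mmu-miR-199a-5p, of Mir199a-1 and Mir199a-2: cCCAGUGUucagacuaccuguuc

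mmu-miR-199a-3p, of Mir199a-1 and Mir199a-2: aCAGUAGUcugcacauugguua

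mmu-miR-199b-3p, of Mir199b: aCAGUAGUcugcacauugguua

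mmu-miR-214-5p, of Mir214: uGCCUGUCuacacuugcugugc

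mmu-miR-214-3p, of Mir214: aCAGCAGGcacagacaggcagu

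The 3p form of the miR-199 genes is one and the same sequence at all 3 loci. The miR-199a-5p form is in the hairpins of Mir199a-1 and Mir199a-2 and in no other of the 1005 mouse hairpins in the RefSeq table. Both miR-214 forms were found in the Mir214 hairpin alone. The 4 seeds differ from each other. For Mir199b RefSeq lists the 3p form alone, and the seed of the other arm of its hairpin was not compared. Among the 1738 mature entries listed, miR-761 was the only other microRNA with one of these seeds, that of miR-214-3p. Its gene Mir761 had 0 reads in both libraries.

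mmu-miR-761, of Mir761: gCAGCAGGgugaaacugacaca

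In the deposited tables, a read with more than 1 match in the genome goes to a summary row and is counted for no gene. That row held 10919725 reads, 77.6% of all reads, in replicate 2 and 7195252 reads, 75.4%, in replicate 1. The hairpins show which parts of the miR-199 genes fall under this rule. They are given with the mature forms in capitals for the genes of chromosomes 9 and 1.

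Mir199a-1: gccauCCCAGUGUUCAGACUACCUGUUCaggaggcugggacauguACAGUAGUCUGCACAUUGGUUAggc

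Mir199a-2: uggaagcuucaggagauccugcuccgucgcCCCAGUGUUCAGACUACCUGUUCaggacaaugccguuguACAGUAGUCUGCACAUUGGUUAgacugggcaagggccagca

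Mir214: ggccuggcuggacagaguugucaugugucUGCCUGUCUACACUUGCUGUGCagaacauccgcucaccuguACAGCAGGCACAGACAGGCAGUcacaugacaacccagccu

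The stretches that Mir199a-1 and Mir199a-2 share reach slightly beyond the mature forms, which are in capitals.

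Shared 5p stretch, 27 bases: CCCAGUGUUCAGACUACCUGUUCagga

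Shared 3p stretch, 26 bases: uguACAGUAGUCUGCACAUUGGUUAg

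A read of miR-199a-5p is therefore particular to one of these hairpins only if it starts upstream of the mature form or runs more than 4 bases past its end. To tell Mir199a-1 from Mir199a-2, a read of miR-199a-3p would have to start more than 3 bases upstream or run more than 1 base past the end. Mir199b shares 27 bases around the 3p form with Mir199a-2, from 4 bases before it. With Mir199a-1 it shares 28 bases, up to 3 bases past the 3p form. A read inside either stretch matches Mir199b as well. On the 5p side of its hairpin the longest runs that Mir199b shares are 18 bases with Mir199a-2 and 17 with Mir199a-1. Of 20-base windows, 17 of 51 in the Mir199a-1 hairpin (33.3%), 16 of 91 in Mir199a-2 (17.6%) and 10 of 91 in Mir199b (10.99%) occur in another hairpin. In Mir199b these windows all lie around the 3p form, and in Mir214 the number is 0 of 91. The miR-214 forms were also in no GENCODE transcript other than those of Mir214 and Dnm3os. The counts below can thus miss reads of both listed forms of Mir199a-1 and Mir199a-2 and of the 3p form of Mir199b, and for Mir214 no such loss was found in these sequences. Which arm the counted reads came from is not recorded, since rows are hairpin genes. Variants of the CAST/EiJ alleles, which could also move reads, were not analysed here.

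**Figure D1:**
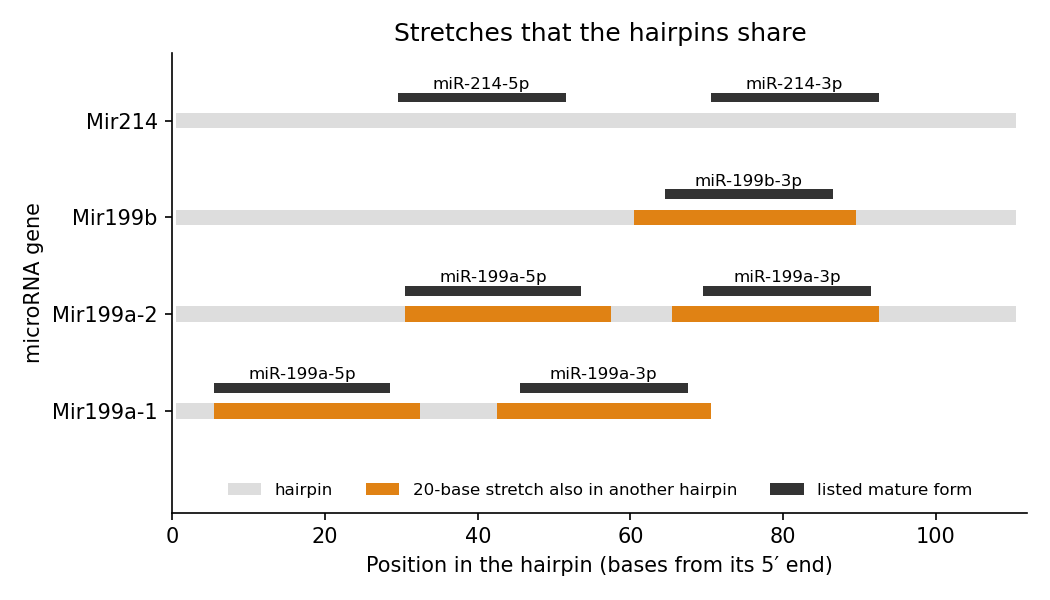
Map of the 4 hairpins from their 5′ ends (x axis, bases; one gene per line), with stretches of at least 20 bases that recur in another mouse hairpin in orange and the mature forms listed by RefSeq as black bars. Each listed miR-199 mature form, for Mir199b miR-199b-3p, lies inside an orange stretch. The 5p side of Mir199b and the whole of Mir214 have none.

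Mir214 had the most counted reads of the 4 genes in both libraries. Its counts were 1316 reads in replicate 2 and 675 in replicate 1. Per 1000000 gene-assigned reads (CPM) its level was 633 (95% Poisson interval 600 to 668) in replicate 2 and 424 (392 to 457) in replicate 1, a mean of 528 ± 148 (SD, n = 2). It ranked at place 76 of all genes in replicate 2 and at place 89 in replicate 1. On the strand opposite to Mir214 there were 2 reads in replicate 2 and 0 in replicate 1. These intervals, like all others here, cover counting error only, since PCR copies cannot be recognised.

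Mir199b came second. It had 97 reads in replicate 2, or 46.7 CPM (37.9 to 56.9), and 334 reads in replicate 1, or 210 CPM (188 to 233). The mean was 128 ± 115 CPM (SD, n = 2), so the SD was nearly as large as the mean. Its place among all genes was 193 in replicate 2 and 124 in replicate 1. The annotated microRNA gene nearest to it, Gm23363, lies 116 bases upstream and had 0 reads in both libraries. It was named after its value was seen.

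Mir199a-2, which lies in Dnm3os like Mir214, had a low count. It had 37 reads in replicate 2, or 17.8 CPM (12.5 to 24.5), and 30 reads in replicate 1, or 18.8 CPM (12.7 to 26.9). The mean was 18.3 ± 0.720 CPM (SD, n = 2), and the intervals of the libraries overlap almost completely. Its place among all genes was 234 in replicate 2 and 237 in replicate 1.

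Mir199a-1, with both mature forms duplicated at other loci, had 0 reads in either library. A count of 0 allows up to 3 counts, or 1.44 CPM in replicate 2 and 1.88 CPM in replicate 1, for reads placed at its locus alone. It sets no limit on miR-199a itself, whose reads match several places. Of 66 genes whose listed mature forms all occur in another hairpin, 22 had any read and 13 passed the minimum of 10 reads per library used below. Of 56 genes with some such forms 44 had any read and 28 passed, and of 829 genes with no such form 394 had any read and 189 passed. The share with any read, and the share that passed, were thus largest for genes with some such forms. These classes rest on the listed forms, for Mir199b the 3p form alone. What duplication does to detection was not tested.

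The order Mir214, Mir199b, Mir199a-2, Mir199a-1 held in both libraries, and within each library the intervals of neighbours in that order did not overlap. Levels of different microRNAs are not strictly comparable, because adapter ligation favours some sequences over others and because reads of the shared miR-199 forms are not counted.

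**Figure D2:**
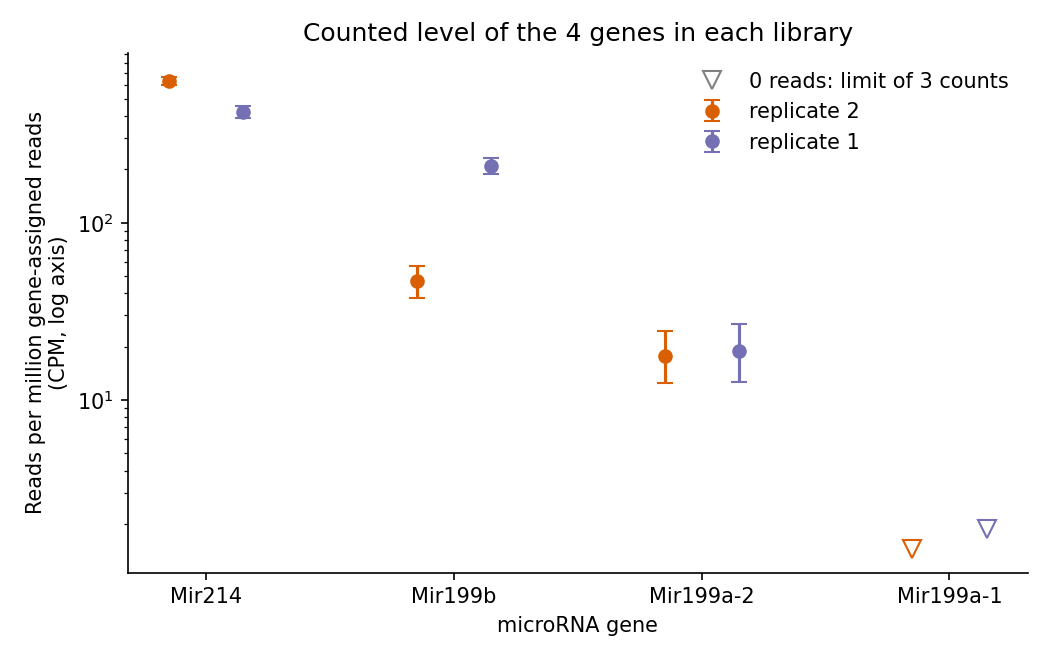
Counted level of the 4 genes (CPM, log axis) in replicate 2 (orange) and replicate 1 (purple), with exact 95% Poisson intervals; open triangles mark the limit of 3 counts where no read was counted. Mir214 and Mir199b differ between the libraries in opposite directions, and Mir199a-2 lies at about the same level in both.

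The 4 genes together held a similar part of the gene-assigned reads of both libraries. It was 698 CPM in replicate 2 and 652 CPM in replicate 1, or 675 ± 32.4 (SD, n = 2). With TMM-scaled library sizes the sum was 1.12-fold higher in replicate 2. Multiply matched reads of the shared miR-199 forms are not in this sum. Their make-up differed. Mir214 supplied 90.8% of the 1450 reads of the 4 genes in replicate 2 (95% exact binomial interval 89.1 to 92.2) and 65.0% of 1039 in replicate 1 (62.0 to 67.9). Mir199b supplied 6.69% in replicate 2 (5.46 to 8.10) and 32.1% in replicate 1 (29.3 to 35.1). Mir199a-2 supplied 2.55% in replicate 2 (1.80 to 3.50) and 2.89% in replicate 1 (1.96 to 4.10).

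**Figure D3:**
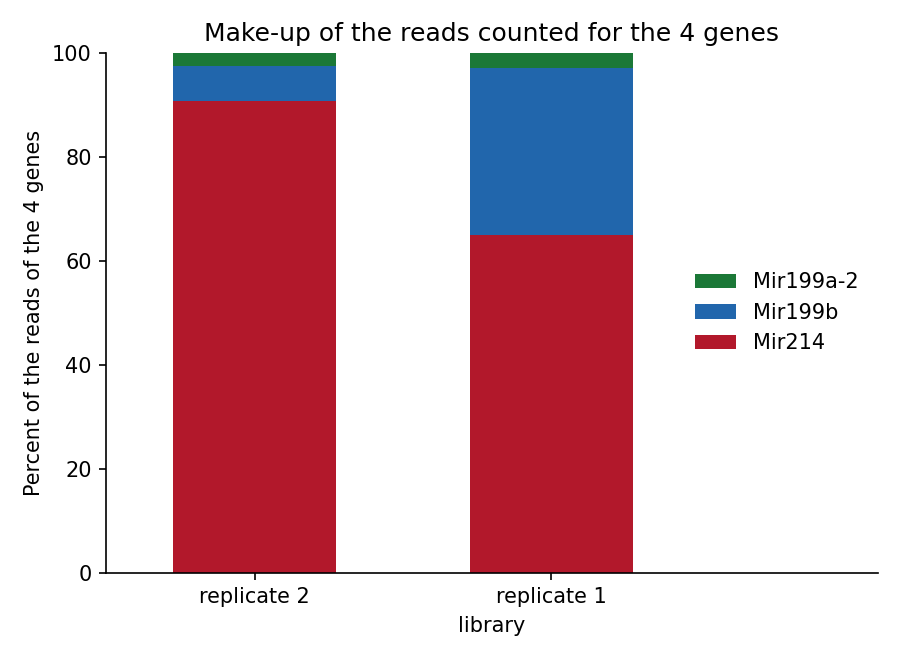
Percent of the reads of the 4 genes (y axis) that came from Mir214, Mir199b and Mir199a-2 in replicate 2 (1450 reads) and replicate 1 (1039 reads); Mir199a-1 had 0 reads. Mir214 takes 90.8% in replicate 2 and 65.0% in replicate 1, and the difference is taken up by Mir199b.

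Ratios within a library do not depend on how the libraries are scaled. Mir214 had 35.6 reads per read of Mir199a-2 in replicate 2 (95% interval 25.7 to 50.7) and 22.5 in replicate 1 (15.6 to 33.6). On the log2 scale Mir214 exceeded Mir199a-2 by 4.82 ± 0.47 (SD, n = 2). The ratio in replicate 2 was 1.58 times that in replicate 1, with an interval of 0.934 to 2.65, so a difference in this pair was not detectable at the depth of Mir199a-2. Both pairs with Mir199b differed more between the libraries. Mir214 had 13.6 reads per read of Mir199b in replicate 2 (11.03 to 16.9) and 2.02 in replicate 1 (1.77 to 2.31), a 6.71-fold difference (5.23 to 8.66). Mir199b had 2.62 reads per read of Mir199a-2 in replicate 2 (1.78 to 3.94) and 11.1 in replicate 1 (7.65 to 16.8), and its ratio was 4.25-fold lower in replicate 2 (2.41 to 7.50). These are descriptions of 2 libraries, without a p-value. They compare counted reads only. Reads of both listed forms of Mir199a-2 and of the 3p form of Mir199b can be missed, and no such loss was found for Mir214. How far this sets the size of the ratios was not tested.

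Each gene was also compared between the libraries in a test run over all 273 genes with at least 10 reads in both. It was a two-sided exact binomial test with TMM-scaled library sizes and Benjamini-Hochberg adjustment at 0.05, and it compares 2 libraries against counting noise, not conditions. Mir214 was 1.57-fold higher in replicate 2 (1.43 to 1.72, adjusted p = 2.03e-21 in the exact binomial test). Mir199b was 4.29-fold lower (3.41 to 5.43, adjusted p = 2.98e-43 in the same exact test). Mir199a-2 had a fold of 0.991 (0.596 to 1.66) and did not pass (adjusted p = 1 in the exact test). Mir199a-1 was under the minimum of 10 reads and was not tested.

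Of the 3 members tested, 1 was thus higher, 1 lower and 1 not called. Over all 273 genes the test called 63.0%, with 33.3% higher and 29.7% lower in replicate 2, so calls of this kind are common between these libraries. By the size of the ratio the members stood further apart. Mir199b had the third lowest ratio of the 273 genes, and only 5 other genes had a ratio at least as far from 1 in either direction. They were Mir182, Mir137, Gm26117, Mir375 and Mir499, named after their values were seen. Mir214 had the 38th highest ratio, and 78 genes including itself were at least as far from 1.

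Against the usual spread between the libraries rather than counting noise, neither call held. That spread was taken from edgeR's common dispersion, which corresponds to a coefficient of variation of 0.335 and was estimated from these same 2 libraries. With edgeR's exact test at that dispersion 1.47% of the 273 genes were called and no member was. The adjusted p was 0.218 for Mir199b, 1 for Mir214 and 1 for Mir199a-2.

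**Figure D4:**
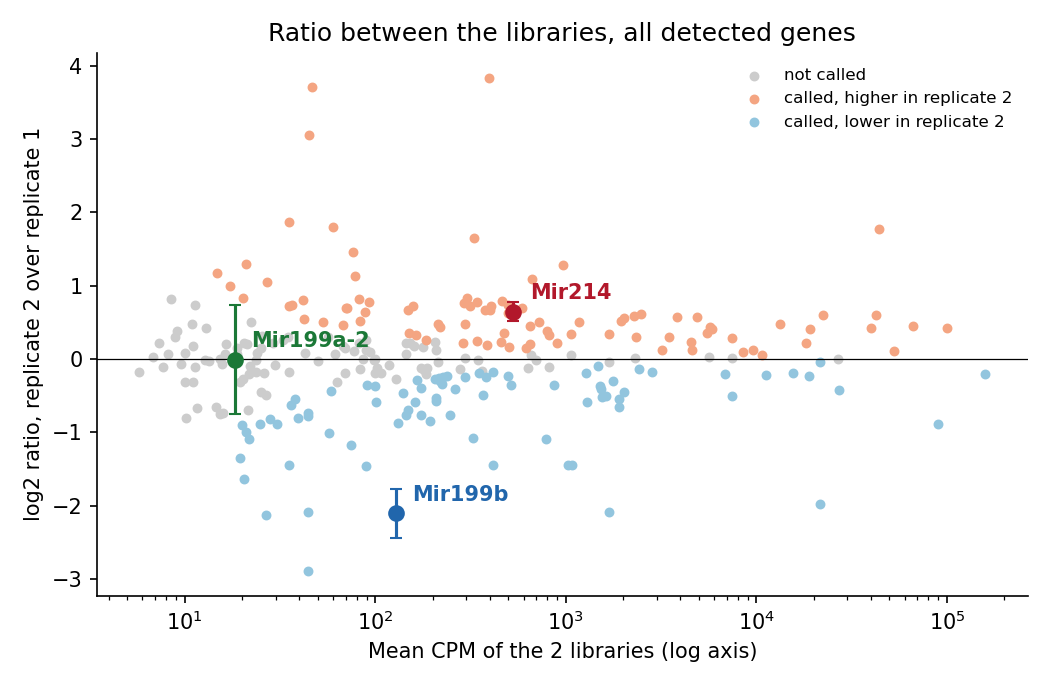
log2 ratio of replicate 2 over replicate 1 (y axis) against mean CPM (x axis, log axis) for the 273 detected genes, coloured by the call of the exact binomial test; Mir214, Mir199b and Mir199a-2 are labelled and carry exact 95% intervals. Mir214 lies among many genes with ratios of its size, and Mir199b near the lower edge of the cloud.

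The detected genes closest to each member in the CPM of both libraries (distance on the log2 scale) were found over the 2 libraries, so likeness rests on 2 values per gene. For Mir214 they were Mir107, Mir328 and Mir185, at distances of 0.11 to 0.22. Their reads were 1237 in replicate 2 and 642 in replicate 1 for Mir107, 1273 and 614 for Mir328, and 1490 and 741 for Mir185. For Mir199a-2 they were Mir323, Mir3061 and Mir378b, at distances of 0.08 to 0.12, with 39 to 40 reads in replicate 2 and 29 to 31 in replicate 1. No gene lay as close to Mir199b. The nearest, Mir138-1 with 96 reads in replicate 2 and 211 in replicate 1, was 0.66 away, and Mir350 and Mir188 were 0.99 and 1.01 away. Closeness in both libraries fixes a similar ratio, so the ratios of these genes add nothing.

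A list of 16 other microRNAs of mesenchyme and connective tissue, chosen with results of these data known, was set beside the members. Of its 14 detected genes, 9 were lower in replicate 2, 1 was higher and 4 did not pass, where 29.7% of all detected genes were lower and 33.3% higher. Scaled by total reads, 10 were lower and 0 higher, and at the common dispersion 0 were called. The median log2 ratio was -0.46, against 0.02 over all detected genes. The list held 10.7% of gene-assigned reads in replicate 2 and 17.2% in replicate 1. Mir143, a smooth muscle microRNA that makes up most of that share, had 61037 CPM in replicate 2 and 118000 CPM in replicate 1 and was 1.85-fold lower (1.83 to 1.86). Its cluster partner Mir145a was 1.45-fold lower. Mir21a, induced in fibrosis, was 1.42-fold lower, and the cartilage microRNA Mir140 was 1.33-fold lower. Mir29a and Mir29c, which repress collagen genes, were 1.58-fold and 2.73-fold lower. Mir29b-1 (fold 1.13) and Mir29b-2 (fold 0.803), of the same family, were not called, and neither was Mir152 (fold 1.17). Mir22 had a fold of 1.00 and was not called, but it was called 1.05-fold lower when libraries were scaled by total reads. Mir335, in the Mest gene, was 1.07-fold higher, and that scaling ended its call. Mir199b was lower in replicate 2, like those 9 genes, and Mir214 was higher.

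Markers of the labelled tissue were present, and markers of it and of other cells are given beside the members. Their calls are from the exact binomial test, which called 63.0% of all genes. At the common dispersion 1 of these markers, Mir499, was still called higher and 0 were called lower. In bulk tissue, fewer cells of a type and less RNA per cell cannot be told apart. Of 7 detected skeletal muscle genes 4 were higher in replicate 2 and 0 lower (3 higher with scaling by total reads). The shares and leading genes of all these lists cover counted reads only, since multiply matched reads are counted for no gene. Which list genes lose reads in this way was not tested. The skeletal muscle list held 6.98% of counted reads in replicate 2 and 2.21% in replicate 1. It was led by Mir206 with 67030 CPM in replicate 2 and 20624 in replicate 1. The other leading genes were Mir486, 1.26-fold higher, and Mir499, 14.3-fold higher. Mir1a-2 was 1.14-fold higher, and scaling by total reads ended its call. Mir133a-1 (fold 0.735), Mir133b (fold 1.05) and Mir1a-1 (fold 0.603) were not called. Mir208b had 889 reads in replicate 2 and 5 in replicate 1, which is under the read minimum, and was not tested. Of 10 muscle differentiation genes 4 were higher and 2 lower, a share near that of all genes, with 16.03% of reads in replicate 2 and 19.0% in replicate 1. Mir378a was 1.15-fold lower, Mir322 1.04-fold higher (not called with scaling by total reads) and Mir27b 1.18-fold higher.

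Both erythroid genes, Mir451a (3.95-fold) and Mir144 (4.25-fold), were lower, and the pair held 0.898% of reads in replicate 2 and 3.73% in replicate 1. The endothelial list held 11.3% in replicate 2 and 8.86% in replicate 1. Mir126a was 1.34-fold higher, and Mir221 and Mir222 were not called. The 4 leukocyte genes held 0.209% in replicate 2 and 0.142% in replicate 1, with Mir155 and Mir150 higher and Mir142 and Mir223 lower. Of 3 detected nerve and glia genes, Mir128-1 and Mir128-2 were higher and Mir338 lower, and the list held 0.123% in replicate 2 and 0.191% in replicate 1. Of 3 detected epithelial genes, Mir203 and Mir200c were lower and Mir205 was not called, with 0.0152% of reads in replicate 2 and 0.0280% in replicate 1. The part of any of these cells in the ratios of Mir214 and Mir199b was not tested.

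The annotated start of the Dnm3os gene lies 191 bases upstream of the Mir199a-2 hairpin. Whether the transcripts that span Mir199a-2 and Mir214 begin there was not tested. The promoter at this start is shown because both hairpins are exonic in Dnm3os. It covers chr1:162217373-162217672 on the plus strand of GRCm38.p6 (RefSeq), from 250 bases before the start, and the capitals mark a CArG box, the sequence bound by serum response factor.

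Dnm3os promoter: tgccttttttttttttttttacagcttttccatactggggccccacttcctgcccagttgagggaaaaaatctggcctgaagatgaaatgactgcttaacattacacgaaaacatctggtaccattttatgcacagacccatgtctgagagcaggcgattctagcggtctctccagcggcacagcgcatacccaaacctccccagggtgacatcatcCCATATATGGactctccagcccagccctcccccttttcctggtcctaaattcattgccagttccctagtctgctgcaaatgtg

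The CArG box begins 33 bases before the annotated start. Such a box, searched on both strands, was found in 1.63% of 32851 mouse promoters of the same length. The E-box CANNTG, the kind of site that Twist1 binds, occurred at 3 places, and 72.3% of promoters hold at least 1. These motifs read as the same kind of site on both strands, and the places found did not overlap the CArG box. TATAAA was not in this window, and 13.6% of promoters hold it. A match is a description of the letters and not evidence of binding.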

How the data were processed

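Raw counts of reads per microRNA gene were deposited by the authors on mm10 and GENCODE M21, as the accompanying read-me text states. Aligner and counter: not given in the sources used here. The column read as sense-strand counts, from its place and values, was taken. Summary rows (unmapped, multiply matched, outside genes) were kept apart, which left 14.8% of the reads of replicate 2 and 16.7% of those of replicate 1. CPM were computed over gene-assigned reads.

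TMM factors came from edgeR 4.0.16 in R 4.3.3, with DESeq2 1.42.0 size factors as an alternative. Detection meant 10 or more reads in each library. A model that sets 1 library against the other has no residual degrees of freedom, so the exact binomial test was the main test. The common dispersion came from a fit of both libraries as 1 group. The procedure was tested on simulated counts. Sequences came from RefSeq tables, in which all 4 members had a hairpin, and were searched as exact matches on both strands with Python 3.11.15 and pandas 2.3.3. Figures used matplotlib 3.10.9.

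The members and lists were chosen with earlier results of these data known. Named genes were the members, overlapping microRNA genes, the 3 nearest detected genes per member and up to 3 leading genes per list. Further genes of the mesenchyme, leukocyte and other lists were named to show a list's make-up.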

Additional observations from a re-analysis of the deposited data

Results flagged for a closer look

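Signal stood in a part of the tables that no gene's count uses. The row of multiply matched reads held 10919725 in replicate 2 and 7195252 in replicate 1. A sum over the whole library is above the limit of 3 counts whatever the members do, so it shows no signal of theirs. Reads of miR-199a-5p and of the 3p form common to Mir199a-1, Mir199a-2 and Mir199b would stand there, and how many do was not tested, since the row is 1 sum per library.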

How the results depend on the processing

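No paired analysis was possible because the design holds 1 group. The number of genes called between the libraries was 172, and 4 once edgeR's exact test used the common dispersion, where Mir199b (log2 ratio -2.10, adjusted p = 0.218) and Mir214 (0.65, adjusted p = 1) no longer passed. That test allows for a spread that counting noise lacks. Over the other alternatives the log2 ratio of Mir199b ranged from -2.18 to -2.08 and that of Mir214 from 0.57 to 0.65, both still called, and Mir199a-2 was called under none. With at least 50 reads in both libraries Mir199a-2 was not tested. Over all reads, summary rows included, the mean level was 2.89 CPM for Mir199a-2, 20.95 CPM for Mir199b and 82.1 CPM for Mir214. Without regard to strand, where reads in genes overlapping on opposite strands are left out of the total, it was 26.3 CPM for Mir199a-2, 187 CPM for Mir199b and 757 CPM for Mir214. With the most abundant gene left out it was 21.8 CPM for Mir199a-2. Leaving out either replicate leaves the value of the other, 17.8 to 18.8 CPM for Mir199a-2, 46.7 to 210 CPM for Mir199b and 424 to 633 CPM for Mir214. Likewise the share of Mir199b in the reads of the members is 6.69% without replicate 1 and 32.1% without replicate 2, and the log2 ratio of Mir214 over Mir199b is 3.76 and 1.02. With 2 libraries such values always lie within 1 SD of the mean, which says nothing about stability. Ignoring strand or adding a pseudocount of 1 read moved shares and ratios by less than 1 SD. The depth of Mir199a-2, 37 reads in replicate 2 and 30 in replicate 1, limits what could be seen for it.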
